A study of Equus asinus with 12 samples.

Results

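The endothelial and capillary genes PECAM1, KDR, FLT1, EMCN, CDH5, TEK, TIE1, VWF, ENG and VEGFA were followed through 12 RNA-seq libraries of donkey skeletal muscle. They were chosen by name, with earlier results of these data known. All 10 names were found among the 27084 loci of the deposited expression table, and where a name had more than 1 row the row with the highest mean level was taken. The libraries came from Dezhou donkeys of 2 strains, Wutou and Sanfen, aged 24 months, and from 2 muscles, the gluteal muscle of the rump and the longissimus dorsi of the back. There were 3 libraries each of Wutou gluteal, Wutou longissimus, Sanfen gluteal and Sanfen longissimus muscle, with no treatment or engineered allele in any group. The study's description gives 6 donkeys in all, but which animal each library came from is not labelled, so the 2 muscles of a strain may come from the same animals and the p-values below measure the spread between libraries.

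Capillaries run along muscle fibres and are lined by endothelial cells. Muscle fibres make VEGFA, the secreted growth factor to which capillary growth in muscle responds, and endothelial cells carry its receptors: KDR (VEGF receptor 2) carries most of the growth signal, while FLT1 (VEGF receptor 1) binds VEGFA tightly and, in its soluble form, holds it away from KDR. The TEK and TIE1 receptors act in the angiopoietin pathway that keeps vessels quiet, ENG is a co-receptor for the TGF-beta and BMP family, PECAM1 and CDH5 (VE-cadherin) join endothelial cells to each other, EMCN is a surface sialoglycoprotein of capillaries and veins, and VWF is the clotting protein that endothelial cells store and release. These roles are known mainly from human and mouse. In whole muscle, fewer endothelial cells and less RNA per endothelial cell cannot be told apart.

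Levels are FPKM, fragments mapped to a transcript scaled by its length and by all mapped fragments, as the authors deposited them; because FPKM is scaled by length, genes can be ranked by it. The depth of each library is unknown, and with it the counting error. The sum of FPKM per library lay between 214564 and 319767, with 43.8% to 56.5% of it in the 10 highest loci of each library. The labelled tissue was met in every library, with the 8 skeletal muscle fibre markers found in the table summing to 20682 to 29610 FPKM. A median-of-ratios size factor, which would bring the typical locus to the same level in each library, ran between 0.929 and 1.19; it was highest in Sanfen gluteal replicates 1 and 2 and lowest in the Wutou longissimus libraries. All 10 genes were among the 12408 tested loci, those with 3 or more libraries at an FPKM of 1 or above.

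PECAM1 was the most abundant of the 10 genes, with a mean of 27.0 FPKM over the 12 libraries, above 95.9% of tested loci. CDH5 followed at 11.9 FPKM, VWF at 8.52, VEGFA at 7.78, KDR at 4.84, ENG at 3.75, TEK at 3.51, FLT1 at 3.16, TIE1 at 3.10 and EMCN at 1.43 FPKM, which was above 38.7% of tested loci. The steps from PECAM1 to CDH5, from VEGFA to KDR and from TIE1 to EMCN held in 12 of 12 libraries, and the step from CDH5 to VWF in 11. VWF exceeded VEGFA in 9 libraries and KDR exceeded ENG in 10. ENG, TEK, FLT1 and TIE1 were not ordered beyond their spread: ENG exceeded TEK in 6 of 12 libraries, TEK exceeded FLT1 in 8 and FLT1 exceeded TIE1 in 6.

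Among the VEGF genes, the ligand VEGFA had 11.3, 6.23 and 6.60 FPKM in replicates 1, 2 and 3 of Wutou gluteal muscle, 4.12, 7.20 and 4.94 FPKM in Wutou longissimus, 10.6, 5.89 and 4.58 FPKM in Sanfen gluteal, and 16.7, 10.7 and 4.49 FPKM in Sanfen longissimus muscle. The highest and the second lowest of all 12 values were both in Sanfen longissimus muscle, and all 4 groups overlapped. VEGFA had a within-group SD of 0.58 on the log2(FPKM + 1) scale, above that of 91.5% of tested loci, against a median over loci of 0.27.

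KDR stood at 4.25, 5.71 and 5.49 FPKM in Wutou gluteal libraries, at 3.04, 4.51 and 3.96 FPKM in Wutou longissimus, at 8.73, 4.49 and 4.20 FPKM in Sanfen gluteal and at 5.87, 3.52 and 4.26 FPKM in Sanfen longissimus libraries. One library, Sanfen gluteal replicate 1, was well above the rest, and the remaining values of the 4 groups were interleaved. FLT1 stood at 2.44, 3.63 and 0.906 FPKM in Wutou gluteal libraries, at 3.03, 2.04 and 1.78 FPKM in Wutou longissimus, at 4.02, 3.53 and 2.15 FPKM in Sanfen gluteal and at 3.57, 5.91 and 4.86 FPKM in Sanfen longissimus libraries. All 3 Sanfen longissimus values were above all 3 Wutou longissimus values, and the 2 gluteal groups overlapped. FLT1 had the widest range of the 10 genes, 6.53-fold between its highest and lowest library.

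The balance of both VEGF receptors was described by their ratio. KDR exceeded FLT1 1.74, 1.57 and 6.06 times in Wutou gluteal libraries, 1.003, 2.21 and 2.23 times in Wutou longissimus, and 2.17, 1.27 and 1.95 times in Sanfen gluteal libraries, while in Sanfen longissimus muscle the KDR to FLT1 ratio was 1.65, 0.596 and 0.877. For the FLT1 row followed here, only the Sanfen longissimus libraries 2 and 3 had less KDR than FLT1. A second FLT1 row, described below, was left out of the ratio. It held 0.587 FPKM in Wutou longissimus replicate 1, enough to bring KDR below FLT1 there, and 5.02 FPKM in Sanfen longissimus replicate 3. On the log2 scale the KDR to FLT1 ratio averaged 1.08 ± 0.79 over gluteal and 0.35 ± 0.78 over longissimus libraries (SD, n = 6 each). It averaged 1.06 ± 0.86 over Wutou and 0.37 ± 0.72 over Sanfen libraries (SD, n = 6 each). Each SD is of single libraries, which may share animals, and pools both muscles or both strains. The ratio of 6.06 came from the lowest FLT1 value, 0.906 FPKM. Whether the mean ratios differ was not tested.

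Among the other receptors, TEK was the steadiest of the 10 genes. It had 2.84, 5.22 and 3.94 FPKM in Wutou gluteal libraries, 3.48, 3.65 and 3.66 FPKM in Wutou longissimus, 3.90, 3.73 and 2.63 FPKM in Sanfen gluteal and 3.55, 2.81 and 2.67 FPKM in Sanfen longissimus libraries. Its within-group SD of 0.23 (log2) exceeded that of 35.2% of tested loci. TIE1 had 2.67, 4.17 and 2.20 FPKM in Wutou gluteal libraries, 2.84, 4.83 and 2.15 FPKM in Wutou longissimus, 2.99, 3.92 and 2.03 FPKM in Sanfen gluteal and 2.49, 4.54 and 2.37 FPKM in Sanfen longissimus libraries. In every group the library numbered 2 was the highest for TIE1, and the 4 group means, 3.01, 3.27, 2.98 and 3.13 FPKM in the same order, lay closer together than the libraries of any group. ENG had 4.51, 3.94 and 2.76 FPKM in Wutou gluteal libraries, 2.21, 3.17 and 3.64 FPKM in Wutou longissimus, 6.09, 3.004 and 2.82 FPKM in Sanfen gluteal and 4.55, 5.53 and 2.76 FPKM in Sanfen longissimus libraries, again with all groups overlapping.

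The junction genes were the most abundant. PECAM1 had 18.0, 38.7 and 23.9 FPKM in Wutou gluteal libraries, 24.0, 25.1 and 22.6 FPKM in Wutou longissimus, 33.1, 41.3 and 27.2 FPKM in Sanfen gluteal and 20.3, 22.1 and 27.2 FPKM in Sanfen longissimus libraries. The Sanfen gluteal libraries held 2 of the 3 highest PECAM1 values, and their lowest was nearly level with the highest Sanfen longissimus library. CDH5 had 8.48, 14.98 and 8.85 FPKM in Wutou gluteal libraries, 7.14, 14.2 and 9.49 FPKM in Wutou longissimus, 15.2, 14.97 and 10.7 FPKM in Sanfen gluteal and 11.4, 16.001 and 11.7 FPKM in Sanfen longissimus libraries. In both muscles the 2 lowest CDH5 values were Wutou libraries, with the library numbered 2 of each Wutou group up among the Sanfen values.

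EMCN, the least abundant, had 1.35, 2.25 and 1.02 FPKM in Wutou gluteal libraries, 1.201, 0.694 and 1.08 FPKM in Wutou longissimus, 2.19, 1.84 and 1.16 FPKM in Sanfen gluteal and 1.79, 1.10 and 1.54 FPKM in Sanfen longissimus libraries. VWF had 8.04, 9.81 and 7.54 FPKM in Wutou gluteal libraries, 5.44, 8.96 and 6.49 FPKM in Wutou longissimus, 6.52, 12.3 and 9.31 FPKM in Sanfen gluteal and 3.48, 16.2 and 8.24 FPKM in Sanfen longissimus libraries. Both the highest and the lowest VWF values were Sanfen longissimus libraries, and the within-group SD of VWF, 0.56 (log2), exceeded that of 90.8% of tested loci.

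**Figure D1:**
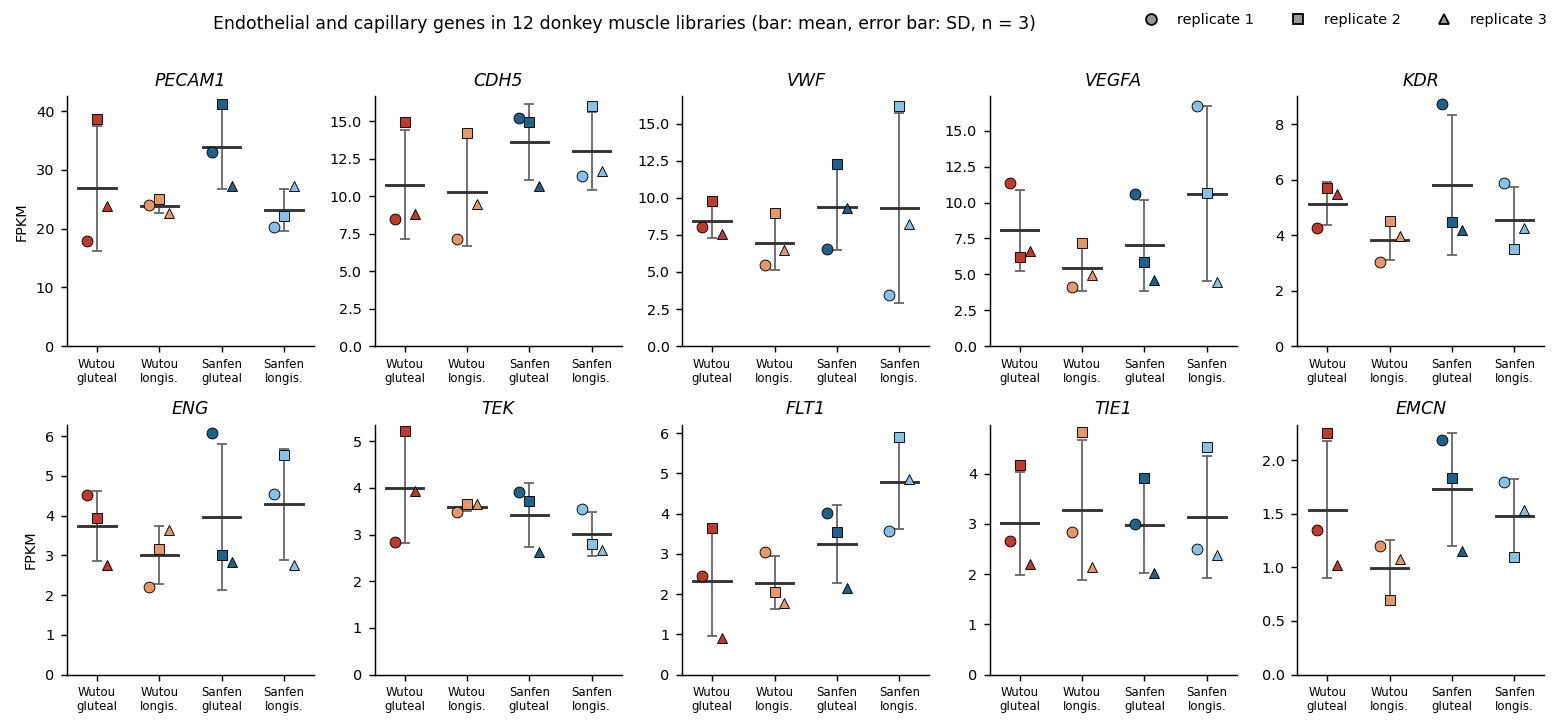
FPKM of the 10 genes in each library, ordered by mean level, with 4 groups on each horizontal axis, the group mean as a bar and the SD as an error bar (n = 3). The 3 FLT1 values of Wutou longissimus muscle, 1.78 to 3.03 FPKM, lie below the 3 of Sanfen longissimus muscle, 3.57 to 5.91 FPKM, and the square of replicate 2 is the highest in every group for TIE1 and VWF.

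Gluteal muscle was set against longissimus muscle in a limma model of log2(FPKM + 1), and p-values were adjusted over all 12408 loci by the Benjamini-Hochberg method. Averaged over strains, 8 of the 10 genes were higher in gluteal muscle, as were 65.9% of all tested loci, with a median difference of 0.09 for the 10 genes and 0.07 for all loci. After median-of-ratios rescaling 5 of 10 and 46.4% of loci were higher, with CDH5, ENG and VEGFA below 0. With 1 library left out the count ran between 5 of 10, without Wutou longissimus replicate 1, and 9 of 10, and the median between 0.05 and 0.17. No gene of the 10 passed an adjusted p of 0.05 by limma, and no locus did (0% of 12408); 0 of the 10 and 814 loci (6.56%) had an unadjusted p under 0.05. PECAM1 differed by 0.31 (95% interval -0.11 to 0.72), KDR by 0.30 (-0.09 to 0.69) and EMCN by 0.23 (-0.10 to 0.56), with a smallest adjusted p of 0.791 by limma. FLT1 differed by -0.26 (95% interval -0.73 to 0.22). Each of the 10 intervals lay between -1 and 1, so a doubling or halving of FPKM + 1 between muscles was outside all of them. The added 1 shrinks the fold changes of low genes, so this does not carry over to a doubling or halving of FPKM itself. These intervals are not adjusted over loci.

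Within Wutou donkeys, 8 of 10 genes were higher in gluteal muscle, against 58.6% of loci; after rescaling 6 of 10 and 46.4% were, with PECAM1 and CDH5 below 0. The count was 5 of 10 without Wutou gluteal replicate 2 and 10 of 10 without Wutou gluteal replicate 3. VEGFA showed the greatest gluteal minus longissimus difference in Wutou at 0.48 (95% interval -0.42 to 1.38), followed by KDR at 0.35 (-0.20 to 0.90) and EMCN at 0.33 (-0.13 to 0.79). In Wutou limma called 0 of the 10 genes and 0% of loci, and 0 of the 10 and 705 loci (5.68%) had an unadjusted p under 0.05. Within Sanfen donkeys, 6 of 10 genes were higher in gluteal muscle, against 67.6% of loci, and after rescaling 5 of 10 and 49.1% were, with CDH5 below 0. The Sanfen count was 4 of 10 without Sanfen gluteal or longissimus replicate 1, where the median difference of the 10 genes was -0.03 and -0.04 against 0.10 with all libraries, and 8 of 10 without Sanfen gluteal replicate 3 or longissimus replicate 2. PECAM1 differed by 0.52 (-0.06 to 1.10), FLT1 by -0.46 (-1.13 to 0.22) and VEGFA by -0.45 (-1.35 to 0.45). In Sanfen limma called 0 of the 10 genes and 3 loci (0.0242%), and 0 of the 10 and 443 loci (3.57%) had an unadjusted p under 0.05. In neither strain did the libraries of the 2 muscles separate without overlap for any of the 10 genes; among all loci, 8.70% separated upwards and 4.18% downwards in Wutou, and 6.27% and 1.27% in Sanfen.

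VEGFA therefore had opposite signs in the strains, and the difference itself was tested as the muscle by strain interaction. For VEGFA the gluteal minus longissimus difference was 0.93 greater in Wutou than in Sanfen donkeys on the log2 scale, with a 95% interval of -0.34 to 2.21 (unadjusted p = 0.136 by limma, adjusted p = 0.9998). The interaction for PECAM1 was -0.42 (95% interval -1.24 to 0.40) and that for FLT1 was 0.40 (-0.55 to 1.35). For the interaction limma called 0 of the 10 genes and 1 of 12408 loci (0.00806%), and 0 of the 10 and 322 loci (2.60%) had an unadjusted p under 0.05. The VEGFA interaction was 1.40 at its highest and 0.55 at its lowest when each library was left out in turn or the values were processed otherwise, which is within the interval given.

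The strains were then compared, Wutou minus Sanfen. In longissimus muscle 3 of the 10 genes were higher in Wutou, against 40.7% of loci, with a median difference of -0.25 for the 10 genes and -0.06 for all loci; after rescaling 3 of 10 and 52.3% of loci were higher, and the medians were -0.18 and 0.01. The median of the 10 genes was -0.10 without Wutou longissimus replicate 1 and -0.33 without Wutou longissimus replicate 2, and their count was 1 of 10 without Sanfen longissimus replicate 1 and 4 of 10 without Sanfen longissimus replicate 2. FLT1 averaged 2.28 ± 0.66 FPKM in Wutou and 4.78 ± 1.17 FPKM in Sanfen longissimus muscle (SD, n = 3 each), a log2 difference of -0.81 (95% interval -1.49 to -0.14), which is a ratio of 0.569 in FPKM + 1. The unadjusted p of 0.0221 by limma did not survive adjustment over 12408 loci (adjusted p = 0.854). FLT1 was the 1 gene of 10 whose longissimus groups did not overlap; 7.92% of all loci were likewise lower in Wutou without overlap and 3.88% higher, and 3.63% were lower with an unadjusted p under 0.05. After adjustment limma called 0 of the 10 and 2 loci (0.0161%); 1 of the 10 and 685 loci (5.52%) had an unadjusted p under 0.05.

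VEGFA, the ligand that FLT1 binds, averaged 5.42 ± 1.597 FPKM in Wutou and 10.6 ± 6.12 FPKM in Sanfen longissimus muscle (SD, n = 3 each), a log2 difference of -0.73 with a 95% interval of -1.63 to 0.17, and the groups overlapped. ENG differed by -0.38 (-0.99 to 0.23), CDH5 by -0.35 (-0.96 to 0.26) and EMCN by -0.31 (-0.78 to 0.15) in longissimus muscle, none past the adjusted threshold by limma. TEK was 0.20 higher in Wutou (95% interval -0.21 to 0.62), while TIE1, at 0.04 (-0.59 to 0.67), and PECAM1, at 0.05 (-0.53 to 0.63), were close to level.

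In gluteal muscle 3 of the 10 genes were higher in Wutou, against 34.2% of loci; after rescaling 6 of 10 and 50.3% were, with KDR, VWF and ENG turning above 0. Leaving out replicate 3 of the Sanfen gluteal libraries, or replicate 2 of the Wutou ones, made this count 1 of 10; it was 5 of 10 without Wutou gluteal replicate 3 and 6 of 10, with a median difference of 0.02 against -0.10 with all libraries, without Sanfen gluteal replicate 1. FLT1 differed by -0.41 (95% interval -1.09 to 0.26), PECAM1 by -0.37 (-0.95 to 0.21) and CDH5 by -0.34 (-0.95 to 0.27), while VEGFA was 0.20 higher in Wutou (-0.70 to 1.10). Here limma called 0 of the 10 genes and 1 locus (0.00806%), and 0 of the 10 and 603 loci (4.86%) had an unadjusted p under 0.05. No gene of the 10 separated without overlap between the strains there, against 8.68% of loci lower and 2.19% higher in Wutou.

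Averaged over muscles, 2 of the 10 genes, TEK and TIE1, were higher in Wutou, against 35.3% of loci, and the median difference of the 10 was -0.18, with -0.07 for all loci; after rescaling 2 of 10 and 52.7% of loci were higher, and the medians were -0.08 and 0.01. With 1 library left out the count was 1 to 3 of 10 and the median -0.25 to -0.14; it was 1 without Sanfen gluteal replicate 3, Sanfen longissimus replicate 1 or 3, Wutou gluteal replicate 2 or Wutou longissimus replicate 2. FLT1 differed by -0.61 (95% interval -1.14 to -0.09; unadjusted p = 0.0253 and adjusted p = 0.793 by limma), CDH5 by -0.34 (-0.79 to 0.10) and TEK by 0.18 (-0.13 to 0.50). Averaged in this way, limma called 0 of the 10 genes and 0% of loci, with 1 of the 10, FLT1, and 741 loci (5.97%) at an unadjusted p under 0.05. This average uses the same libraries as the strain comparisons within each muscle, so it is no separate observation of FLT1. For FLT1 the averaged difference ran between -0.82 and -0.45 over the 20 alternatives that gave it a value, left-out libraries included, with adjusted p between 0.404 and 0.992 by limma. It was lower in Wutou in each of them, but they reuse the same libraries and are no repeated observation. The fits without the filter and with other blocks leave the difference itself as it was. FLT1 did not pass the filter at FPKM 5 and has no value there.

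**Figure D2:**
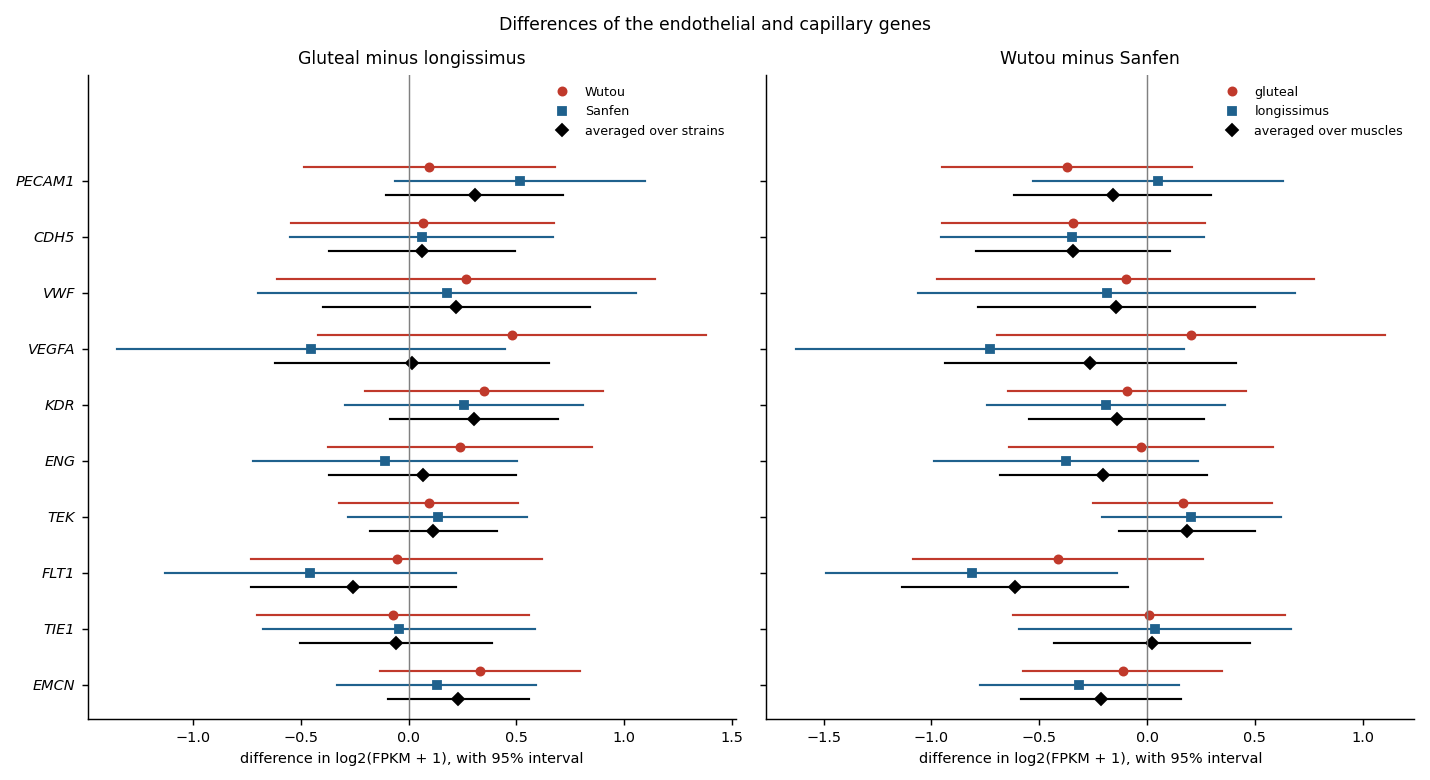
Differences in log2(FPKM + 1) with 95% intervals from the limma model, gluteal minus longissimus on the left and Wutou minus Sanfen on the right, for each stratum and averaged. Only the FLT1 intervals for longissimus muscle (-1.49 to -0.14) and averaged over muscles (-1.14 to -0.09) leave out 0, before any adjustment over loci.

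Beside the locus followed here (MSTRG.5372), a second row (MSTRG.5373) carries the name FLT1. It was at 5.02 FPKM in Sanfen longissimus replicate 3, whereas the other 11 libraries lay between 0.0306 and 1.42 FPKM. Adding both FLT1 rows together widened the Wutou minus Sanfen difference in longissimus muscle to -1.07 (adjusted p = 0.854 by limma). EMCN and VEGFA also have a second row each, at no more than 0.861 and 1.13 FPKM in any library.

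The spread within groups had a shape of its own, noticed after the values were seen and given as a description. TIE1 and VWF were highest in the library numbered 2 in all 4 groups, 2 of the 10 genes against 3.72% of tested loci, and PECAM1 and CDH5 in 3 of the 4 groups. Over replicates numbered 2, VWF ran between 8.96 and 16.2 FPKM, over replicates numbered 3 between 6.49 and 9.31 FPKM, and over replicates numbered 1 between 3.48 and 8.04 FPKM, so the ranges of numbers 2 and 3 overlap. None of the 10 was highest in the library numbered 1 or 3 in all groups, as 4.85% and 0.975% of loci were. After median-of-ratios rescaling CDH5 joined TIE1 and VWF, 3 of 10 against 2.77% of loci.

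Some vessel genes outside the 10 had this pattern too. Among 12 tested arterial and Notch genes, DLL4, NOTCH4 and EPHB4 were highest in the library numbered 2 in every group; DLL4, the Notch ligand of arterial and sprouting endothelium, had 5.73, 9.33, 6.91 and 10.8 FPKM there in Wutou gluteal, Wutou longissimus, Sanfen gluteal and Sanfen longissimus muscle, and 1.40 to 5.44 FPKM in the remaining libraries. CD34, a surface sialomucin of endothelial and stromal progenitor cells, had 28.4, 25.6, 23.5 and 19.4 FPKM in the libraries numbered 2 in the same order, and 11.1 to 17.1 FPKM elsewhere. Among 17 tested junction and surface genes CD34 and MMRN2 had this pattern, and among 12 tested pericyte and smooth muscle markers PDGFRB, RGS5, NOTCH3 and MYH11 did. So did EGFL7, APLNR and PLXND1 of 14 tested growth factor and receptor genes and NOS3 of 8 haemostasis and tone genes. The share over all tested loci was 3.72%. These list counts use values as deposited and were noticed after the values were seen. The lists come from the same libraries as the 10 genes and are no separate observation. None of 8 endothelial transcription factors, 7 leukocyte, 9 fibroblast, 11 fast fibre or 11 slow fibre genes had this pattern. Highest in the library numbered 1 in every group were BMPR2 of 14 growth factor and receptor genes, EPAS1 of 8 transcription factors and LYVE1 of 5 lymphatic markers. So were LUM and MFAP5 of 9 fibroblast markers and PMP22 of 4 nerve and Schwann markers, against 4.85% of all tested loci. No label says that a number marks a shared day, batch or animal across groups, and the part of the library number in these levels was not tested.

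**Figure D3:**
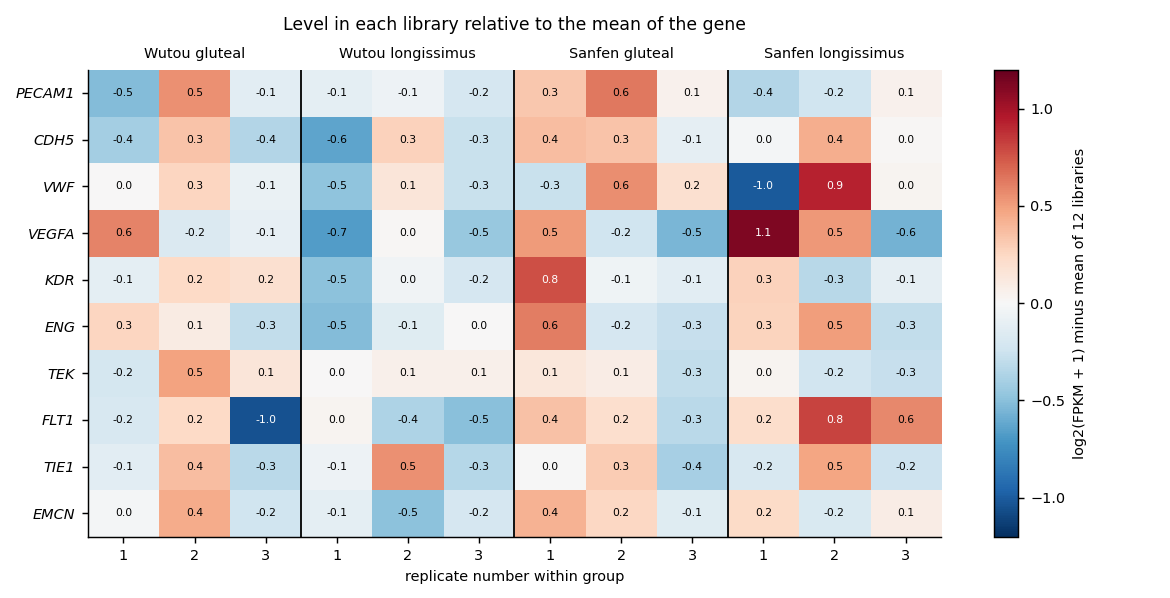
Level of each gene in each library on the log2(FPKM + 1) scale, minus the mean of that gene over the 12 libraries, with red above and blue below it. The columns numbered 2 are red for TIE1 and VWF in all 4 groups, and Wutou longissimus replicate 1 is at or below the mean for most genes.

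By library, the 10 genes stood highest together in Sanfen gluteal replicate 1, where their mean deviation was 0.32 (log2) and 8 of 10 were above their own mean, followed by Wutou gluteal replicate 2 at 0.28 with 9 of 10, and Sanfen longissimus replicate 2 at 0.27 with 6 of 10. They stood lowest in Wutou longissimus replicate 1, at -0.31 with 2 of 10 above their own mean. After median-of-ratios rescaling Wutou gluteal replicate 2 was the highest at 0.27, Sanfen longissimus replicate 2 followed at 0.20 and Sanfen gluteal replicate 1 came next at 0.14, with Wutou longissimus replicate 1 still lowest at -0.23. The summed FPKM of the 10 genes ran between 63.3 and 94.6 in Wutou gluteal, 56.5 and 74.3 in Wutou longissimus, 66.8 and 94.9 in Sanfen gluteal and 70.1 and 88.3 in Sanfen longissimus libraries. Each gene was also standardised, its deviation divided by its SD over the 12 libraries. The mean standardised level of the 10 genes went with the log2 size factor of the library with r = 0.73 over 12 libraries. This r was 0.42 after the values were divided by that factor. The part of the size factor in the strain and muscle differences was not tested beyond the rescaled fits.

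Within groups the 10 genes varied together to different degrees. Over deviations from the group means in 12 libraries, the median Pearson correlation of the 45 pairs was 0.32, against 0.022 for pairs of all tested loci, and 37 of 45 were above 0. After median-of-ratios rescaling the median was 0.24, against 0.002, with 33 of 45 above 0. These are descriptions: libraries share depth and scaling within a column, and the 2 muscles may share animals.

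Pairs with high correlation were CDH5 with TIE1 at 0.84, VEGFA with ENG at 0.77, PECAM1 with TEK at 0.71 and EMCN with TEK at 0.67. CDH5 and TIE1 kept a correlation of 0.81 after rescaling, and VEGFA and ENG one of 0.75. VWF ran against KDR, at -0.53, and against EMCN, at -0.40, and PECAM1 ran against VEGFA, at -0.42; after rescaling these 3 were -0.60, -0.51 and -0.55. The ligand VEGFA correlated at 0.51 with KDR and at 0.02 with FLT1, and the 2 receptors at -0.04 with each other.

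**Figure D4:**
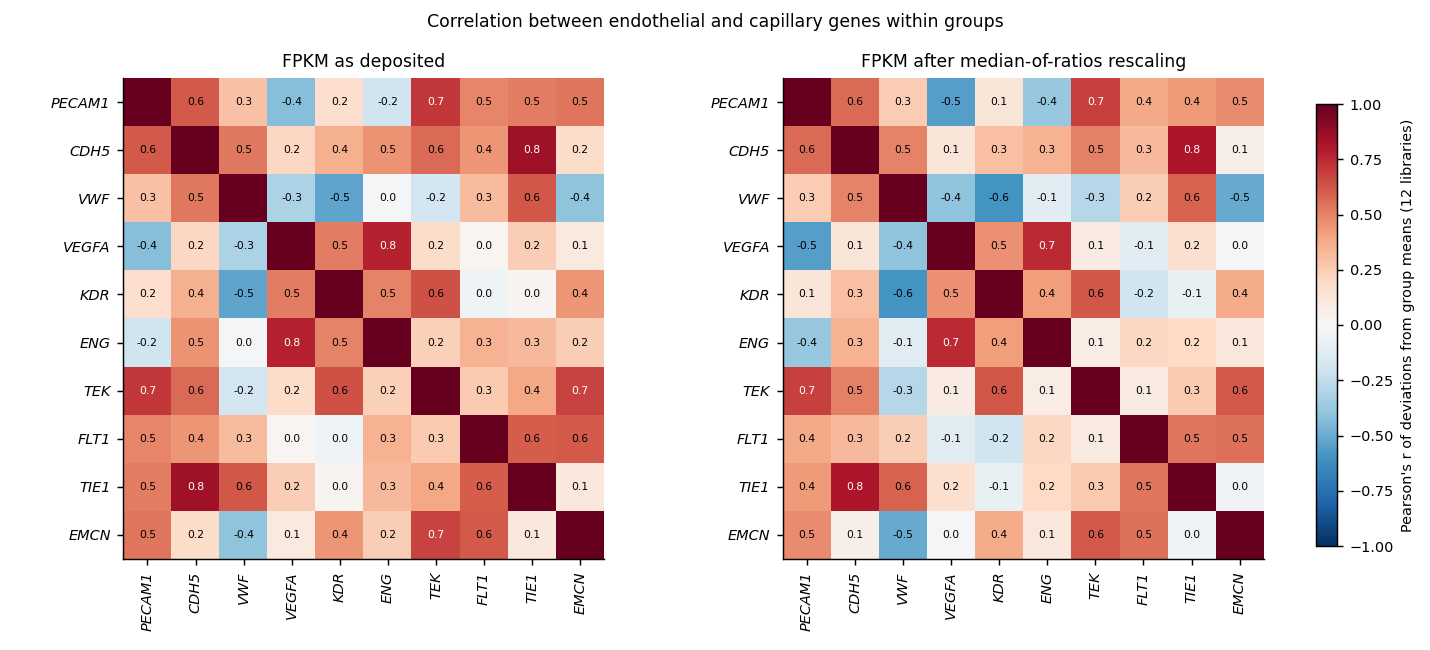
Pearson correlation between each pair of the 10 genes over deviations from group means in 12 libraries, for FPKM as deposited on the left and after median-of-ratios rescaling on the right. CDH5 with TIE1 (0.84 and 0.81) and VEGFA with ENG (0.77 and 0.75) are the reddest pairs in both panels, and VWF with KDR (-0.53 and -0.60) is among the bluest.

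Other genes of the vessel wall were taken from lists chosen by known role, also with earlier results of these data known. Of 14 tested vascular growth factors and receptors, 17 junction and surface genes, 8 haemostasis and tone genes, 8 endothelial transcription factors and 12 arterial and Notch genes, none passed an adjusted p of 0.05 by limma in any of the 7 comparisons. Averaged over strains, 10 of 14, 15 of 17, 6 of 8, 7 of 8 and 9 of 12 of them were higher in gluteal muscle, against 65.9% of all loci, and none had an unadjusted p under 0.05. After median-of-ratios rescaling these counts were 6, 9, 5, 3 and 6, against 46.8% of the same loci. CAV1, the coat protein of caveolae, differed by 0.67 between gluteal and longissimus muscle (adjusted p = 0.774 by limma), ETS1, a vessel transcription factor, by 0.34 (adjusted p = 0.760) and JAG1, a Notch ligand, by 0.38 (adjusted p = 0.760). In the other direction, EFNB2, an arterial ephrin ligand, differed by -0.36 (adjusted p = 0.760 by limma) and S1PR1, the endothelial sphingosine-1-phosphate receptor, by -0.68 (adjusted p = 0.855). S1PR1 had a wide spread, with 3.25 ± 3.22 FPKM in Wutou gluteal and 4.25 ± 0.61 FPKM in Wutou longissimus libraries (SD, n = 3 each). In Sanfen it had 2.55 ± 3.50 FPKM in gluteal and 4.38 ± 3.62 FPKM in longissimus libraries (SD, n = 3 each). Of 12 tested hypoxia response genes 9 were higher in gluteal muscle, against 65.9% of loci, and 6 after rescaling, against 46.8%. HIF1A, the oxygen-sensitive factor known to activate VEGFA, was the only 1 of the 12 with an unadjusted p under 0.05, as 6.56% of loci had. HIF1A differed by 0.33 (unadjusted p = 0.0329, adjusted p = 0.745 by limma), while VEGFA differed by 0.02.

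Between strains, averaged over muscles, 7 of 14 growth factor and receptor genes, 9 of 17 junction and surface genes, 2 of 8 haemostasis and tone genes, 2 of 8 endothelial transcription factors and 5 of 12 arterial and Notch genes were higher in Wutou, against 2 of the 10 genes and 35.3% of loci. The median Wutou minus Sanfen differences of the 5 lists were 0.003, 0.01, -0.06, -0.10 and -0.03 in that order. After rescaling the counts were 9, 11, 4, 3 and 7, against 52.1% of the same loci. Of the 17 junction and surface genes, 2 were higher in Wutou at an unadjusted p under 0.05, as were 153 of all 12408 loci (1.23%), and no gene of the other 4 lists was in either direction, with 588 loci (4.74%) lower.

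The mean level of the 10 genes followed those lists across the 12 libraries. It correlated at 0.83 with the junction and surface genes, 0.85 with the haemostasis and tone genes, 0.81 with growth factors and receptors, 0.72 with the arterial and Notch genes, 0.72 with pericyte and smooth muscle markers and 0.66 with endothelial transcription factors. After rescaling these values were 0.71, 0.73, 0.57, 0.62, 0.54 and 0.47. The correlation with leukocyte markers was 0.24 and with fibroblast markers 0.37, and 0.034 and 0.20 after rescaling. Hypoxia response genes stood at 0.67, tendon markers at 0.58, adipocyte markers at 0.47, lymphatic markers at 0.36 and nerve and Schwann markers at 0.30, and after rescaling at 0.34, 0.44, 0.10, 0.15 and 0.031. Points share library, depth and possibly animals, and no test was made.

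On the same standardised means, fast fibre genes correlated with the 10 genes at -0.66 and slow fibre genes at 0.48, and at -0.51 and 0.27 after rescaling. Summed FPKM of 11 fast fibre genes ran between 14127 and 20947 in Wutou gluteal, 20868 and 22049 in Wutou longissimus, 10534 and 18188 in Sanfen gluteal and 7598.5 and 19243 in Sanfen longissimus libraries; that of 11 slow fibre genes ran between 5444 and 6190, 6116 and 7630, 6429 and 17327, and 7536 and 11100 in the same groups. Their part in the levels of the 10 genes was not tested.

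PECAM1 and VWF are also made by other blood and immune cells, so markers of those were read beside them. Of the 7 erythroid and platelet markers in the table none reached the testing filter, with sums of 0.442 to 0.730 FPKM in Wutou gluteal, 0.340 to 0.619 in Wutou longissimus, 0.734 to 3.61 in Sanfen gluteal and 0.651 to 4.26 FPKM in Sanfen longissimus libraries; the platelet gene PPBP was listed at 0 in 9 of 12 libraries. The 12 leukocyte markers in the table, 7 of them tested, summed to 10.7 to 18.6, 11.8 to 19.3, 9.73 to 18.1 and 14.4 to 18.1 FPKM in the same order, and the pan-leukocyte gene PTPRC did not exceed 0.969 FPKM. Of the 13 pericyte and smooth muscle markers, 12 were tested and ANPEP was near 0; DES, which muscle fibres make, supplied most of their sum of 1081 to 2677 FPKM.

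**Figure D5:**
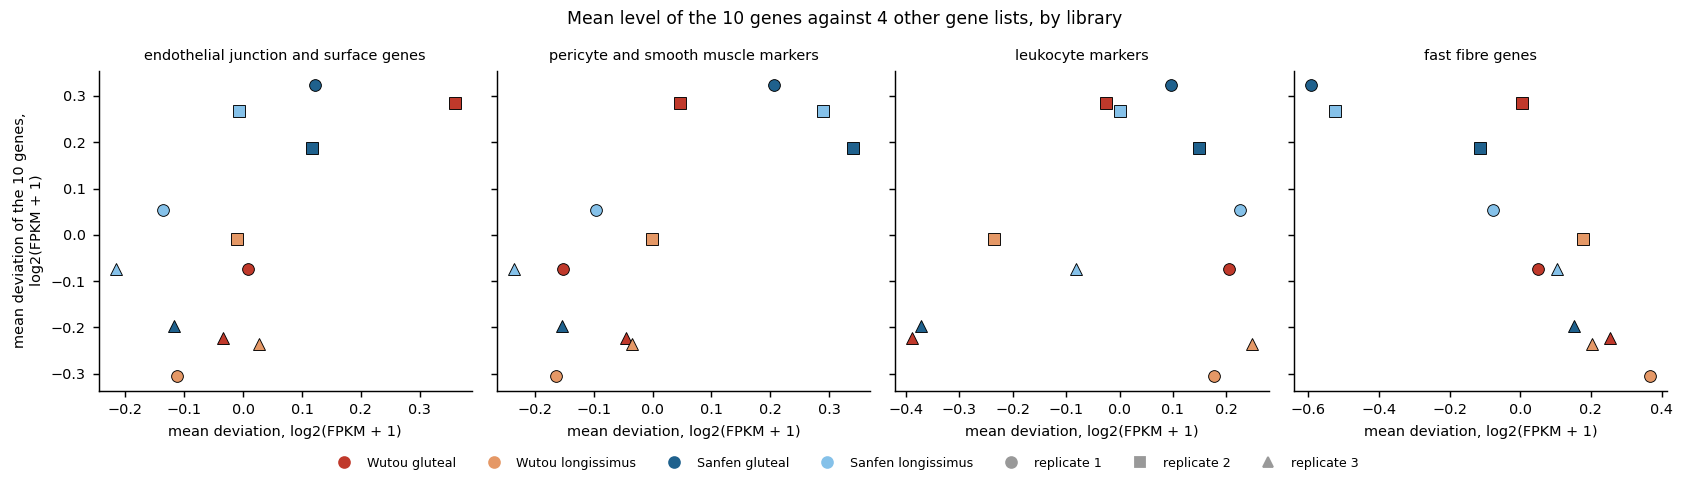
Mean deviation of the 10 genes (vertical) against that of 4 other lists (horizontal) in each of 12 libraries on the log2(FPKM + 1) scale, coloured by group with replicate numbers as shapes. The 10 genes rise along the junction and surface genes and pericyte markers, show little relation to leukocyte markers, and fall along the fast fibre genes. Over means of standardised levels, which are not the plotted values, r was 0.83, 0.72, 0.24 and -0.66 in that order.

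Of 8110 other tested loci with 1 reference gene symbol, those most like the mean standardised level of the 10 genes over the 12 libraries were ZNFX1 (r = 0.93), SYDE1 (0.92), HM13 (0.90), ELMO1 (0.90), ARMC2 (0.90), FAM129B (0.90), ABHD14B (0.89), BICC1 (0.88), MAP1A (0.88) and MARVELD1 (0.88). Their mean levels lay between 0.817 FPKM for ARMC2 and 4.49 FPKM for FAM129B. After median-of-ratios rescaling the 10 correlations were 0.77 to 0.91. These loci were picked as the highest of 8110 over 12 libraries that may share animals, so high values follow in part from the picking. The mean they were set against itself went with the log2 size factor (r = 0.73), and no test was made.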

How the data were processed

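RNA was measured in 12 libraries of donkey muscle. The authors deposited FPKM per locus, per the file headers; cutadapt, Bowtie2 and TopHat2 are named in the submitters' processing notes, and no source used here names the genome build. Reads per library are not given, and steps among low values gave only a weak estimate of relative depth (0.912 to 1.04 of 1 library, resting on 1.04% to 1.79% of compared ratios). The members and lists were chosen with earlier results of these data known.

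A filter kept 12408 of 27084 loci, those at FPKM 1 or above in 3 or more libraries. In R 4.3.3, limma 3.58.1 fitted log2(FPKM + 1) with 4 group means, 8 residual degrees of freedom, a variance trend and Benjamini-Hochberg adjustment at 0.05 over all loci. Libraries of 1 strain with 1 number formed a random block when the strains were averaged over muscles (statmod 1.5.0, consensus correlation 0.188). All 10 genes are named. From other lists up to 3 genes with the smallest p between muscles were eligible, and genes named for the replicate pattern were chosen after their values were seen. The fit was run on simulated data with independent libraries, for the comparisons without a block. That run does not cover libraries that share an animal.

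The replicate numbers were checked as pairs of muscles: deviations of same-numbered libraries correlated at 0.246, 0.110 and 0.158 in Sanfen, all above 0.1, and at 0.182, 0.164 and 0.0711 in Wutou. No label states this pairing of muscles, which rests on the values. Same-numbered libraries of different strains, which cannot be 1 animal, correlated at 0.0996, 0.136 and 0.125 in gluteal muscle. In longissimus muscle they did so at 0.0829, 0.18 and -0.0851. Whether a number marks an animal was not tested. Alternatives were another pseudocount, filters, scalings, array weights, summed rows, blocks and each library left out.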

Additional observations from a re-analysis of the deposited data

How the results depend on the processing

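Of the 1415 differences recomputed over 23 alternative settings none was called, so each count of the 10 genes called stayed at 0 where it was computed. At a filter of FPKM 5 only 5 of the 10 genes, PECAM1, CDH5, VWF, VEGFA and KDR, were tested, and the blocks and the fits of only 2 groups cover only some comparisons. Over these values the smallest adjusted p was 0.404 by limma, for FLT1 between strains with the replicate number shared across strains as a block, which was chosen after seeing the data. With the replicate block in the muscle comparisons and the interaction, 0 genes were called and the smallest adjusted p was 0.570. Of the 1415 differences 101 changed sign, 81 of them among the 840 with 1 library left out. The sign also changed in 9 of 70 after median-of-ratios rescaling, 3 of 70 after quantile normalization and 8 of 70 with array weights. None did with a pseudocount of 0.1 or with summed rows. None could with another filter, the blocks or only the 2 groups compared, which leave the difference of group means as it was. Those settings change only its interval and p-value. Within a stratum, leaving out a library of another group does the same. The median correlation between pairs of the 10 genes within groups, 0.32, became 0.24 after median-of-ratios rescaling. Across all loci, calls in the Sanfen muscle comparison were 3, against 1 with the replicate block, 1 with a filter at FPKM 5, 5 with no filter and 5 with a pseudocount of 0.1, and in the strain comparison of longissimus muscle 2, against 0 with a filter at FPKM 5, 6 with a pseudocount of 0.1 and 7 with only the 2 groups compared. Leaving out 1 library gave 0 to 5 calls in Sanfen (0 without Sanfen gluteal replicate 2, 5 without Sanfen gluteal replicate 1) and 0 to 6 in longissimus muscle (6 without Sanfen gluteal replicate 1, and 0 without Sanfen gluteal replicate 3, Sanfen longissimus replicate 1, Wutou gluteal replicate 3 or Wutou longissimus replicate 1 or 3). It gave 0 to 3 calls between strains in gluteal muscle, against 1, and 1 to 5 for the interaction, against 1, each at its highest without Sanfen gluteal replicate 1. From 0 calls it gave up to 2 in Wutou, 4 for muscles averaged over strains and 1 for strains averaged over muscles. With 3 libraries a group, unadjusted 95% intervals had half-widths of 0.42 to 0.90 on the log2 scale within a stratum. A difference smaller than the half-width of its gene had an interval that held 0. A call after adjustment over all loci needed more. FLT1 between strains in longissimus muscle differed by -0.81, beyond its half-width of 0.67, with adjusted p = 0.854 by limma.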
